A study of Mus musculus with 18 samples.

Results

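Knockdown of Chst7 in fibroblasts before any reprogramming factor was induced is described here from 6 of the 18 libraries of the series: 3 from cells transfected with small interfering RNA (siRNA) against Chst7 (siChst7) and 3 from cells given a control siRNA (siControl), all collected at day 0, the day after transfection. The libraries were chosen by their labels, and all 24514 genes of the count table were considered. Of these, 13802 had enough counts to be tested. Both groups came from the iMGT-Myh6-eGFP-MEF line, mouse embryonic fibroblasts that carry the cardiac transcription factors Mef2c, Gata4 and Tbx5 under a doxycycline switch, together with a Myh6-eGFP reporter. Both groups carried the switchable factors, were kept in the reprogramming medium (iCRM) and had received no doxycycline at this time, so the knockdown is the only difference between them that the labels give. The other 12 libraries were siChst7 and siControl cells after 1 and 3 days of doxycycline.

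As a model the comparison has several limits. Only this line was used, and each library pooled cells from 40 wells of a 384-well plate. The labels call the 3 replicates per group biological without stating that they were separate cultures, so the p-values measure the spread between these libraries, which may be technical. Neither the sequence of the siRNA nor whether it was a pool of several is given in the sources used here. In a pooled culture, fewer cells of a type and less RNA per cell cannot be told apart.

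The product of Chst7 is an enzyme of the Golgi that sulfates chondroitin, the sugar chain of many matrix and cell surface proteoglycans. Fibroblasts on stiff culture plastic take on features of myofibroblasts: they assemble actin stress fibres, make contractile proteins such as smooth muscle actin and deposit matrix. Part of this program is run by serum response factor (SRF), which binds the DNA element called the CArG box together with the actin-regulated coactivators encoded by Mkl1 and Mkl2. Another part is run by the coactivators YAP and TAZ, which act through TEAD factors, and by transforming growth factor beta (TGF-beta) signalling.

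The siChst7 libraries held 42829857 to 50021142 counts and the siControl libraries 44687733 to 46730986 counts. On the leading principal component, which held 75.8% of the variance, the siChst7 libraries lay between -12.45 and -11.85 and the siControl libraries between 11.67 and 12.8. The library of siChst7 replicate 3 stood apart from its group on the next component (12.2% of the variance), at -9.27, against 4.31 and 5.15 for the other siChst7 libraries and -3 to 2.02 for siControl. Its counts differed from those of siChst7 replicates 1 and 2 with chi-square values per degree of freedom of 15.5 and 15.2, against 3.69 between those 2 libraries and 3 to 4.73 between siControl libraries. Across genes, its log2 difference from the siControl mean also went with gene length (Spearman correlation 0.32 over 10088 genes), against -0.048 and -0.038 for the other siChst7 libraries and -0.181 to 0.151 for siControl. Counts of called genes are therefore also given without siChst7 replicate 3. The labelled cell type was checked on its markers. Vim, Col1a1, Col1a2, Fn1 and Prrx1 were abundant in all 6 libraries, whereas Thy1 had 0 counts in siChst7 and 0 to 4 counts in siControl libraries, and Lum 5 to 8 counts in siChst7 and 1 to 10 counts in siControl.

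Chst7 itself (chromosome X, 20058963 to 20099991 on mm10) had 0.238, 0.611 and 0.465 CPM (counts scaled to the size of the library) in the siChst7 libraries, against 19.7, 18.6 and 19.2 CPM in the siControl libraries. Every siChst7 library was far below every siControl library, and the siChst7 mean was 2.29% of the siControl mean. The log2 fold change, siChst7 over siControl as throughout, was -5.47 ± 0.18 (SE; edgeR quasi-likelihood test, adjusted p = 6.03e-15). Prl2c2, a member of a family of placental hormone genes with near-identical copies among which reads may be shared, was higher by the widest margin among the genes named by rank, at 42.6 ± 3.95 CPM in siChst7 and 12.5 ± 1.25 CPM in siControl (SD, n = 3 each).

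Of the 13802 genes tested, 3785 (27.4%) passed an adjusted p of 0.05 (edgeR, Benjamini-Hochberg over all genes tested): 1916 (13.9%) were higher and 1869 (13.5%) lower with siChst7, so 50.6% of the calls were higher. Scaled to library totals alone, 3976 genes were called and 69.4% of them were higher. The median absolute log2 fold change of called genes was 0.289; 142 of the genes that were higher and 75 of those that were lower had changed at least 2-fold. Without siChst7 replicate 3, 3375 genes were called, 3048 of them among the 3785. Over all genes tested the median log2 fold change was 0.0058. Beside Chst7, the widest drops named by rank included Actg2, Sync, Fhl1, Acta2, Lims2 and Tagln.

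**Figure D1:**
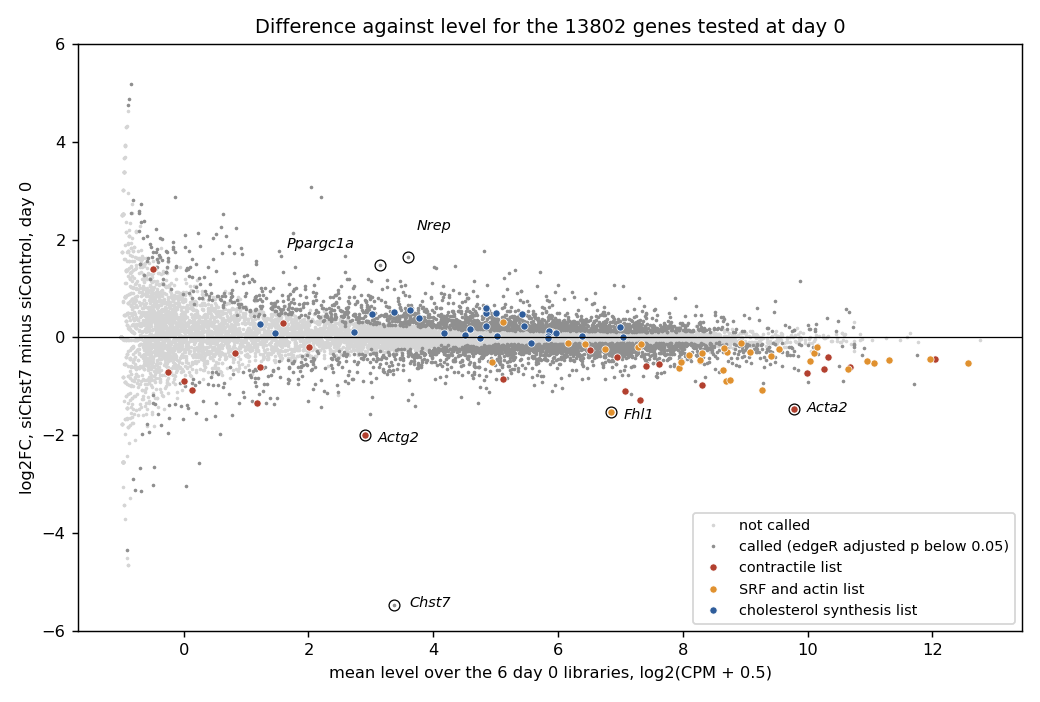
Log2 fold change of siChst7 over siControl at day 0 (vertical axis) against mean level over the 6 libraries as log2(CPM + 0.5) (horizontal axis) for 13802 genes, with the contractile, SRF and actin, and cholesterol lists in colour and 6 genes circled. Chst7 lies lowest at -5.47, Actg2 at -1.99, Fhl1 at -1.53 and Acta2 at -1.47, with Nrep at 1.65 and Ppargc1a at 1.49 on the upper side.

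The contractile and smooth muscle list holds the proteins that mark a myofibroblast. Of its 24 members tested, 18 (75%) were lower and 0 higher, and the median log2 fold change was -0.63. Acta2, which encodes smooth muscle alpha-actin, had 464, 440.0 and 500.0 CPM with siChst7, against 1262, 1246 and 1374 CPM with siControl. All siChst7 libraries lay well below all siControl libraries, and the log2 fold change was -1.47 ± 0.06 (SE; edgeR adjusted p = 1.81e-13). Tagln encodes transgelin, an actin-binding protein of smooth muscle. It had 95.1, 95.7 and 86.4 CPM with siChst7, against 219, 219.7 and 239.7 CPM with siControl, a log2 fold change of -1.29 ± 0.06. Actg2, the enteric smooth muscle gamma-actin, had 2.62, 2.49 and 3.37 CPM in siChst7 libraries, against 11.4, 10.2 and 12.0 CPM in siControl libraries. Its log2 fold change of -1.99 ± 0.12 (SE; edgeR adjusted p = 2.66e-11) was the widest of the list, and the groups did not overlap.

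Other contractile members followed with narrower drops. Myl9, the regulatory light chain of smooth and non-muscle myosin, was at 214 ± 4.78 CPM with siChst7 and 419 ± 18.8 CPM with siControl (SD, n = 3 each). The tropomyosin gene Tpm1 fell to 1297 ± 32.2 CPM with siChst7, against 1985 ± 62.0 CPM with siControl, and Cnn2, a calponin, to 771 ± 25.3 CPM with siChst7, against 1269 ± 23.3 CPM with siControl. The 6 members that did not pass the test were Cnn1, Myh11, Mylk, Des, Synpo2 and Mrvi1. Cnn1 and Myh11, markers of mature smooth muscle, were near 0 in both groups, with Cnn1 at 0.139 to 0.362 CPM in siChst7 and 0.290 to 0.507 CPM in siControl. Summed over the list, levels were 8945.9 to 9371.6 CPM in siChst7 libraries and 13720 to 14261 CPM in siControl libraries. Leaving out siChst7 replicate 3 gave 18 members lower and 1 higher.

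In the list of SRF targets, actin genes and actin regulators, 30 of 33 members tested (90.9%) were lower and 1 higher, with a median log2 fold change of -0.37. Wdr1, whose product helps cofilin to disassemble actin filaments, had 400.1, 387 and 410.3 CPM with siChst7, against 817, 842 and 852 CPM with siControl. The groups were wide apart relative to their spread, and with a log2 fold change of -1.07 ± 0.04 (edgeR adjusted p = 6.03e-15) it shared the smallest adjusted p of all genes with Chst7. Fhl1, which encodes a LIM protein of muscle, had 58.2, 57.9 and 61.5 CPM with siChst7, against 164, 169 and 179 CPM with siControl. Its log2 fold change was -1.53 ± 0.07, the widest of the list. Srf itself, the gene of the factor, had 187, 185 and 206 CPM with siChst7, against 301, 298 and 299 CPM with siControl, a log2 fold change of -0.63 ± 0.05 (edgeR adjusted p = 1.25e-09).

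The genes of both cytoplasmic actins were lower. Actb was at 4982 ± 299 CPM with siChst7 and 7135 ± 118 CPM with siControl, and Actg1 at 2126 ± 115 CPM with siChst7 and 2926 ± 90.0 CPM with siControl (SD, n = 3 each). Focal adhesion and crosslinking proteins of the actin network were lower as well: Vcl (vinculin) had a log2 fold change of -0.67 ± 0.04, Actn1 (alpha-actinin) -0.64 ± 0.05 and Pdlim5 -0.89 ± 0.04. Rhob and Rock2, which signal to the actin network, had -0.51 ± 0.05 and -0.46 ± 0.04. Cotl1, a coactosin-like actin-binding protein, was the 1 member that was higher, at 37.9 ± 0.967 CPM with siChst7 and 30.5 ± 2.03 CPM with siControl. The coactivator genes did not pass the test: Mkl1 had a log2 fold change of -0.12 ± 0.05 (edgeR adjusted p = 0.108) and Mkl2 0.10 ± 0.05 (adjusted p = 0.0999). Both depended on the processing. Mkl1 passed as lower without siChst7 replicate 3 (-0.178, edgeR adjusted p = 0.0224), and Mkl2 as higher by library totals alone (0.16, adjusted p = 0.0123). Summed levels were 23547 to 25364 CPM in siChst7 and 33256 to 33828 CPM in siControl, and without siChst7 replicate 3 the list had 29 members lower and 1 higher.

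**Figure D2:**
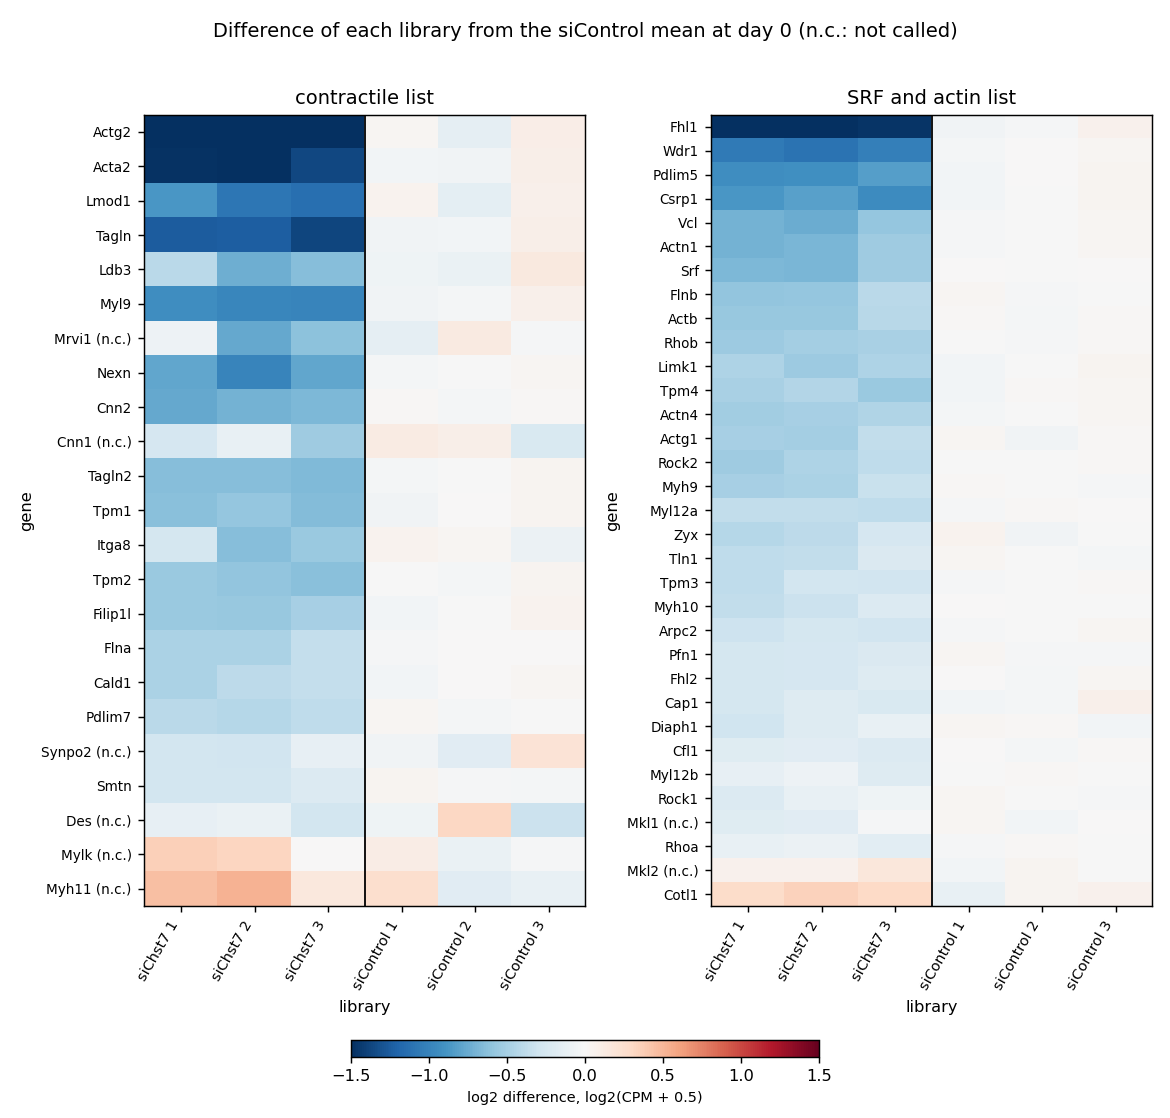
Difference of each library from the siControl mean at day 0 on the log2(CPM + 0.5) scale, for 23 contractile members (left) and 33 SRF and actin members (right) in rows, with the 3 siChst7 libraries left of the 3 siControl libraries; n.c. marks members that were not called, and colours saturate at 1.5 in either direction. The siChst7 columns are blue for nearly all rows of both panels, and Cotl1 is the only called member in red.

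Because SRF acts through CArG boxes, the RefSeq promoters of these genes (GRCm38.p6, 250 bases before to 50 after the annotated start) were searched on both strands for that element, which was found in 183 of the 10910 tested genes with a promoter sequence (1.68%). Among matched members it was found in 4 of 19 contractile genes (21.1%) and 5 of 28 SRF and actin genes (17.9%). Members were chosen with earlier results of these data known, and the SRF and actin list holds SRF targets. Higher shares of matches may thus be partly built in. Of all members tested, 18 of 24 contractile and 30 of 33 SRF and actin genes were lower. Whether the drop went with the element was not tested. The 9 members with a match were Cnn2, Myl9, Filip1l, Ldb3, Srf, Actg1, Vcl, Fhl1 and Fhl2, and 9 of 9 were lower. Of these, 7 are shown with 20 bases on either side, written in the direction of the gene with CArG boxes in capitals, since these are members that were lower and carry the element; the Srf window holds 2.
Cnn2, chr10:79988524-79988573, plus strand: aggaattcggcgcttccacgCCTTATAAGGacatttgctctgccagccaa
Myl9, chr2:156775283-156775332, plus strand: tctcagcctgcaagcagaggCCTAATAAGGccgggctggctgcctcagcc
Filip1l, chr16:57549160-57549209, plus strand: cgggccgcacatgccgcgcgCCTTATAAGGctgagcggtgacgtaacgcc
Srf, chr17:46556215-46556264, minus strand: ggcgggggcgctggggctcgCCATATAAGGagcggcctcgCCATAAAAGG
Actg1, chr11:120348556-120348605, minus strand: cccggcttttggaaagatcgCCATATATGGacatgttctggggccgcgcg
Vcl, chr14:20929151-20929200, plus strand: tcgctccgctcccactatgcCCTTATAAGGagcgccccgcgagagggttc
Fhl1, chrX:56779561-56779610, plus strand: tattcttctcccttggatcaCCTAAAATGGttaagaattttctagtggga
The call of Fhl2 was lost when 1 library was left out. Of 174 genes with the element in neither list, 38 (21.8%) were lower and 23 (13.2%) higher, beside 13.8% lower and 14% higher among all 10910 genes with a promoter. A match is a description of these letters and not evidence of binding. The search allowed only A or T between the CC and GG of the element. By this strict pattern the Acta2 window (chr19:34255324-34255623, minus strand) held 0 CArG boxes, and Acta2 is among the genes with the widest drops. That window does hold ccctatatgg and ccttgtttgg, each with a C or G among the middle bases, which the pattern leaves out.

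In the YAP, TAZ and TEAD list, well-known targets were lower, while the coactivator genes did not pass the test. Of 32 members tested, 15 (46.9%) were lower and 3 higher, with a median log2 fold change of -0.11. Ctgf, a secreted matricellular protein and a standard TEAD target, had 2164, 2207 and 2457 CPM with siChst7, against 4381, 4354 and 4442 CPM with siControl. The groups did not overlap and the log2 fold change was -0.95 ± 0.05 (edgeR adjusted p = 1.17e-12). Its relative Cyr61 had 670.0, 706 and 750.0 CPM with siChst7, against 1336, 1318 and 1359 CPM with siControl, a log2 fold change of -0.92 ± 0.04. Amotl2, which encodes a scaffold that holds YAP in the cytoplasm and is itself a YAP target, had -0.93 ± 0.05, F3 (tissue factor) -0.90 ± 0.04 and Ankrd1 -0.80 ± 0.05. Among the DNA-binding partners, Tead1 was at 264 ± 21.2 CPM with siChst7 and 385 ± 11.8 CPM with siControl, and the TEAD cofactor Vgll3 at 184 ± 12.9 CPM with siChst7 and 277 ± 3.20 CPM with siControl. Yap1 and Wwtr1, the genes of YAP and TAZ, had log2 fold changes of -0.05 ± 0.05 and 0.03 ± 0.04 with edgeR adjusted p = 0.507 and 0.584. The 3 members that were higher were Sav1, Nt5e and Igfbp3, and the list without siChst7 replicate 3 had 18 lower and 3 higher. Its members overlap other lists described here, with 3 also among the TGF-beta response genes.

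The core of the TEAD element, CATTCC or its reverse complement GGAATG, was found in 15 of 24 matched promoters of that list (62.5%), of which 8 belonged to genes that were lower. It was also found in 9 of 19 matched promoters of the contractile list (47.4%) and in 7 of 28 of the SRF and actin list (25%), and it was present in 14.6% of all 10910 promoters. Of the 1597 genes with it, 16.2% were lower and 14% higher, and of the 1566 outside these 3 lists 15.2% were lower and 14.2% higher. The windows of 4 targets that were lower are shown in the direction of the gene, with the element in capitals.
Cyr61 (Ccn1 in RefSeq), chr3:145650063-145650108, minus strand: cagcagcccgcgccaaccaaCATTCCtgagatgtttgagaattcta
Ankrd1, chr19:36119942-36119987, minus strand: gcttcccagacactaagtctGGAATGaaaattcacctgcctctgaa
Amotl2, chr9:102717719-102717764, plus strand: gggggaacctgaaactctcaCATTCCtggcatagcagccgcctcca
Vgll3, chr16:65815106-65815151, plus strand: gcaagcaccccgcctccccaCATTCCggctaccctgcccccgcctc
Yap1 and Wwtr1, which did not pass the test, also held the element in this window.

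**Figure D3:**
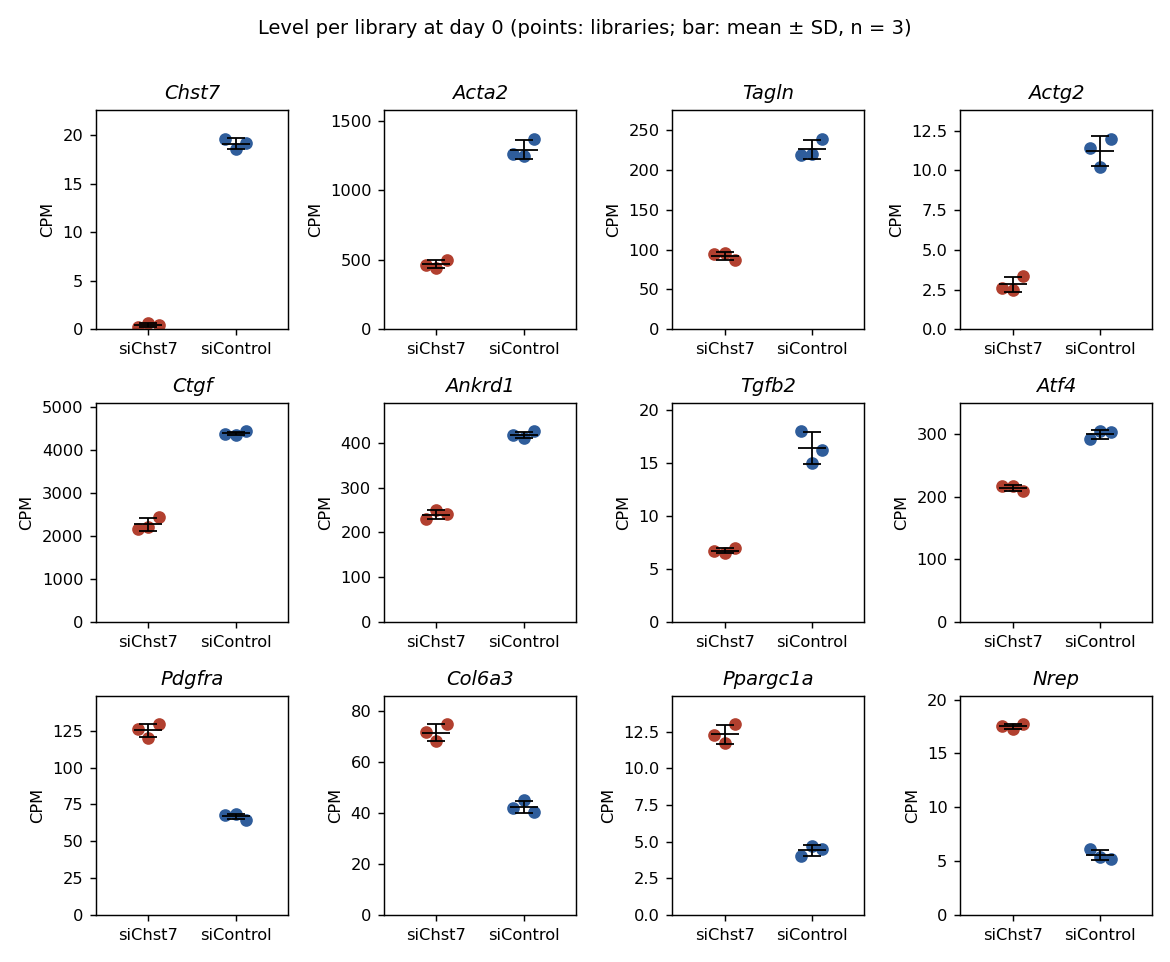
CPM of 12 genes in each day 0 library, with siChst7 left of siControl; points are libraries and bars the mean ± SD (n = 3). In every panel the 2 groups are apart, with Chst7, Acta2, Tagln, Actg2, Ctgf, Ankrd1, Tgfb2 and Atf4 lower and Pdgfra, Col6a3, Ppargc1a and Nrep higher in siChst7 libraries.

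TGF-beta drives fibroblasts towards myofibroblasts, and its ligand genes moved in both directions. Of 30 ligands, receptors and SMADs tested, 13 were lower (43.3%) and 8 higher (26.7%), beside 13.5% and 13.9% over all genes tested. Scaled to library totals alone the balance turned, with 6 lower and 10 higher, and without siChst7 replicate 3 it was 14 lower and 4 higher. Leaving out siControl replicate 2 gave 5 higher, and leaving out siChst7 replicate 1 or 2 gave 8 lower. Tgfb2, the ligand with the widest drop, had 6.68, 6.52 and 7.02 CPM with siChst7, against 18.0, 15.0 and 16.3 CPM with siControl. The groups did not overlap, and the log2 fold change was -1.29 ± 0.06 (edgeR adjusted p = 1.16e-12). Tgfb3, another ligand, was higher at 49.9 ± 0.371 CPM with siChst7 and 43.1 ± 2.37 CPM with siControl, whereas Tgfb1 did not pass the test (log2 fold change -0.14 ± 0.06, edgeR adjusted p = 0.0837). The activin subunits Inhba and Inhbb had log2 fold changes of -0.79 ± 0.05 and -0.58 ± 0.06, and Thbs1, whose product activates latent TGF-beta, -0.58 ± 0.05. The receptors Tgfbr1 and Tgfbr3 were higher, at 0.31 ± 0.05 and 0.25 ± 0.04.

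Response genes of TGF-beta were as divided: 7 of 35 tested were lower (20%) and 8 higher (22.9%), with a median log2 fold change of 0.06. Ankrd1, which encodes an ankyrin repeat protein and also stands in the YAP and TEAD list, had 229, 249 and 241 CPM with siChst7, against 416, 410.5 and 425 CPM with siControl. The groups were apart (edgeR adjusted p = 4.4e-11). Col1a2, by contrast, was higher at 1606 ± 75.2 CPM with siChst7 and 1267 ± 30.6 CPM with siControl, and the response genes Fn1 and Col1a1 were not called, with log2 fold changes of -0.05 ± 0.05 and 0.07 ± 0.06. The count was 9 lower and 6 higher without siChst7 replicate 3, which turned the balance, and 5 lower and 13 higher when scaled to library totals alone.

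Most collagen genes were not called, and those that were called were more often higher than lower. Of 28 tested, 10 were higher and 1 lower, and the lower one was Col12a1, a collagen of tendon and stressed matrix that had 94.6, 95.4 and 116 CPM with siChst7, against 172, 174 and 176 CPM with siControl. Col6a3, a chain of the pericellular collagen VI, had 71.8, 68.2 and 74.9 CPM with siChst7, against 42.1, 45.1 and 40.5 CPM with siControl. Each siChst7 library was above each siControl library, and the log2 fold change was 0.75 ± 0.07 (edgeR adjusted p = 8.48e-08). Col5a1, Col11a1, Col4a5, Col7a1 and Col18a1 were higher too, with log2 fold changes between 0.40 and 0.90. The count was 10 higher and 2 lower without siChst7 replicate 3. Chondrocyte and osteoblast markers summed to 62.892 to 77.033 CPM with siChst7 and 49.729 to 55.598 CPM with siControl, with Sox9 and Col10a1 higher of 6 tested. Their part was not tested, and the call of Col10a1 was lost when 1 library was left out.

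Enzymes and glycoproteins of the matrix were split, with 12 of 43 higher (27.9%) and 13 lower (30.2%), beside 13.9% and 13.5% over all genes tested. Scaled to library totals alone the balance turned to 15 higher and 10 lower. Tgm2 (transglutaminase 2) and Lox (lysyl oxidase), both of which crosslink matrix, were lower: Tgm2 was at 18.7 ± 1.95 CPM with siChst7 and 38.0 ± 1.37 CPM with siControl, and Lox at 499.9 ± 28.6 CPM with siChst7 and 756 ± 15.0 CPM with siControl. Emilin1 and Thbs2 were higher, with log2 fold changes of 0.64 ± 0.05 and 0.71 ± 0.06. Among proteases and inhibitors, 9 of 32 were higher and 9 lower (28.1% each). The collagenase and stromelysin genes Mmp13 (log2 fold change 0.82 ± 0.08), Mmp3 (0.75 ± 0.06), Mmp10 (1.08 ± 0.16) and Mmp19 (0.67 ± 0.08) were on the higher side, and the inhibitors Timp2 (-0.22 ± 0.05) and Timp3 (-0.30 ± 0.04) on the lower. The inhibitor Timp1 and the protease Mmp2 were not called. By library totals alone both passed as higher, with log2 fold changes of 0.201 and 0.178. Adamts5, an aggrecanase, had 36.3, 38.3 and 39.2 CPM with siChst7, against 79.5, 79.1 and 83.3 CPM with siControl, a log2 fold change of -1.09 ± 0.04 (edgeR adjusted p = 7.92e-14), whereas its relative Adamts7 was at 177 ± 8.86 CPM with siChst7 and 85.7 ± 3.24 CPM with siControl. Of 29 integrin and focal adhesion genes, 13 were lower (44.8%) and 6 higher (20.7%), Itga7 (-0.75 ± 0.05) and Fermt2 (-0.46 ± 0.04) among the lower and Itgb8 (0.91 ± 0.11) among the higher. That count was 13 lower and 2 higher without siChst7 replicate 3, 7 lower and 6 higher by library totals alone, and 3 were higher without siControl replicate 3. Matrix glycoproteins had 9 higher and 12 lower, and proteases 8 higher and 9 lower, with that siChst7 library left out.

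The sulfation pathway of Chst7 had calls in both directions, some of which were lost without 1 library. Over all genes tested, 13.9% were higher and 13.5% lower. Of 12 carbohydrate sulfotransferases tested, 4 were lower, the targeted Chst7 among them, and 2 higher, and without siChst7 replicate 3 the count was 3 lower and 0 higher. Among enzymes that sulfate chondroitin and dermatan, Chst11 was lower at 92.6 ± 4.64 CPM with siChst7 and 107 ± 1.62 CPM with siControl. Chst3, the closest relative of Chst7 in the reaction it performs, was at 5.57, 5.45 and 5.74 CPM with siChst7 and 6.62, 4.85 and 4.73 CPM with siControl; the groups overlapped and the edgeR adjusted p was 0.801. The calls of Chst12 (lower), Chst2 and Chst14 (higher) and Gal3st2 (lower, at 0 to 2 counts with siChst7 and 4 to 10 counts with siControl) were each lost when 1 library was left out. Of 25 chondroitin and dermatan chain enzymes, 5 were higher (20%) and 4 lower (16%), near the shares over all genes. Papss2, which makes the sulfate donor, had 10.7, 9.50 and 10.1 CPM with siChst7, against 15.8, 15.6 and 15.2 CPM with siControl, with no overlap and a log2 fold change of -0.62 ± 0.06 (edgeR adjusted p = 1.72e-07). Csgalnact1, which starts the chondroitin chain, was higher at 19.4 ± 0.900 CPM with siChst7 and 10.9 ± 1.16 CPM with siControl. Heparan sulfate enzymes had 3 members higher and 3 lower of 16 (18.8% each). Proteoglycan cores and hyaluronan genes had 6 higher (23.1%) and 5 lower (19.2%) of 26. Among the latter, Sdc4 (-0.40 ± 0.04) and Gpc4 (-0.43 ± 0.06) were lower, and Gpc1 (0.31 ± 0.05) and the hyaluronan synthase Has2 (0.51 ± 0.09) higher. With siChst7 replicate 3 left out, the chondroitin list had 5 higher and 5 lower, the heparan sulfate list 3 higher and 2 lower and the proteoglycan list 4 higher and 6 lower; the last had 3 higher without siControl replicate 3. By library totals alone the heparan sulfate list had 5 higher and 3 lower.

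**Figure D4:**
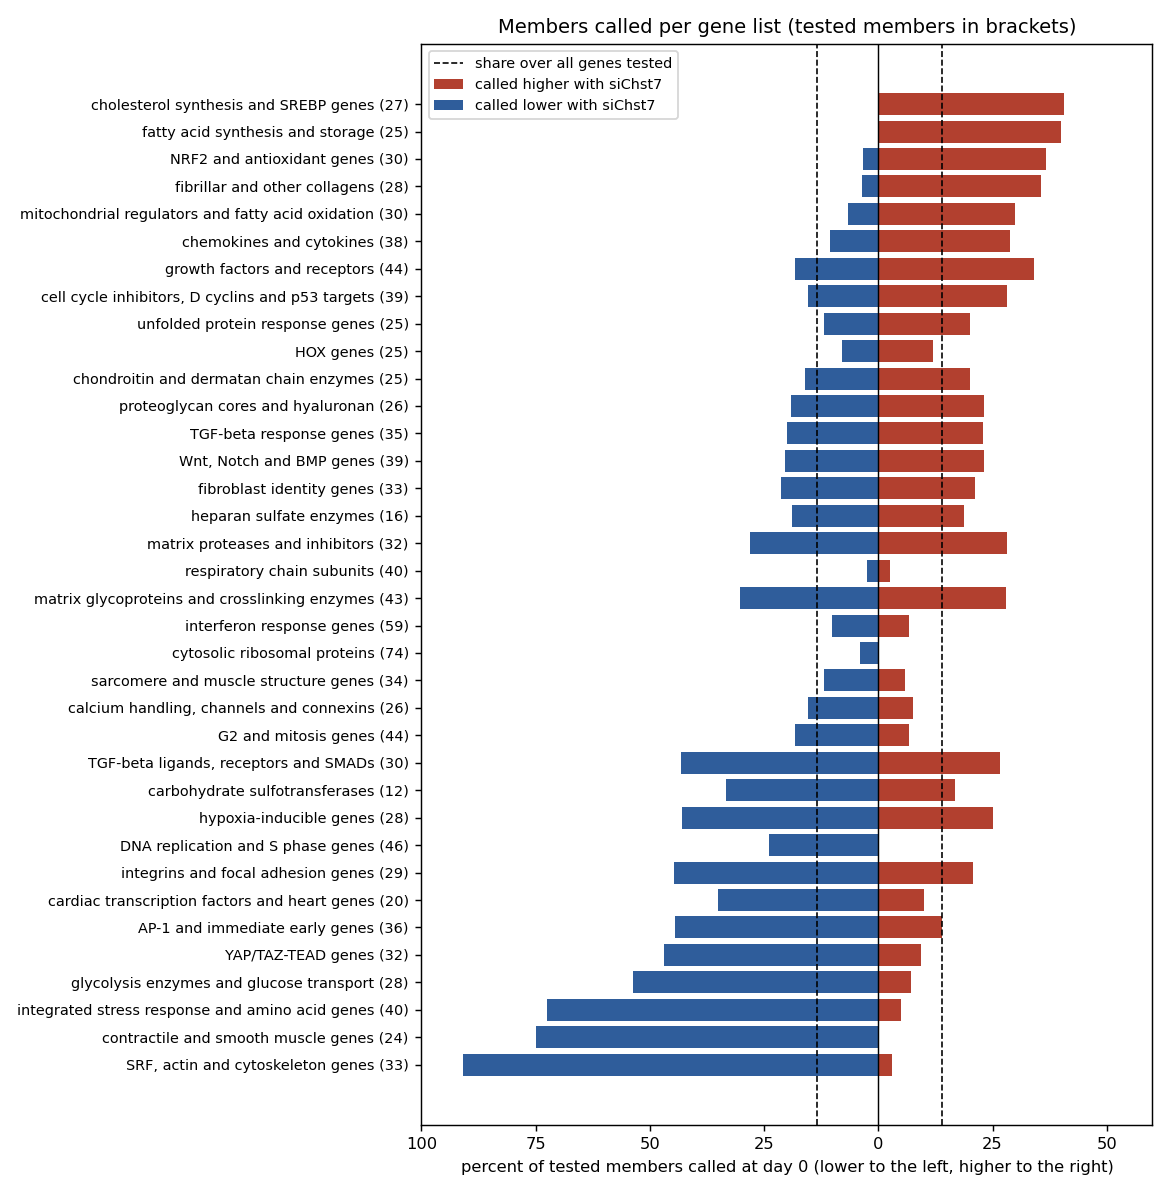
Percent of the tested members of 36 gene lists that were called at day 0 (members in brackets), lower with siChst7 to the left in blue and higher to the right in red; dashed lines mark the shares over all 13802 genes tested, 13.5% lower and 13.9% higher. The SRF and actin (90.9% lower), contractile (75%) and stress response (72.5%) lists reach farthest to the left, and the cholesterol and fatty acid lists have no lower members.

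The integrated stress response lowers general translation and, through the factor ATF4, raises genes for amino acid synthesis, amino acid uptake and transfer RNA charging. Of 40 members tested, 29 (72.5%) were lower and 2 higher, with a median log2 fold change of -0.30; without siChst7 replicate 3 the count was 26 lower and 1 higher. Atf4 had 217, 217 and 209 CPM with siChst7, against 292, 304 and 304 CPM with siControl. All siChst7 libraries were below all siControl libraries, and the log2 fold change was -0.49 ± 0.04 (edgeR adjusted p = 2.24e-08). Trib3, a pseudokinase induced by ATF4, was at 25.2 ± 0.717 CPM with siChst7 and 42.2 ± 0.887 CPM with siControl. The charging enzymes Nars, Wars and Gars had log2 fold changes of -0.57 ± 0.04, -0.55 ± 0.05 and -0.34 ± 0.04. Asns, which makes asparagine, had -0.46 ± 0.07, and the amino acid transporter subunits Slc7a5 and Slc3a2 had -0.42 ± 0.06 and -0.35 ± 0.04. Cebpb, a partner of ATF4, and the lipoprotein receptor gene Vldlr were the higher members, Cebpb at 211 ± 6.03 CPM with siChst7 and 166 ± 2.88 CPM with siControl; the call of Vldlr was lost without siChst7 replicate 3. Summed levels were 4734.5 to 4744.2 CPM with siChst7 and 5742.2 to 5758.9 CPM with siControl. In the unfolded protein response list the endoplasmic reticulum chaperone genes Hspa5 and Hsp90b1 were not called (edgeR adjusted p = 0.76 and 0.148), and 5 of 25 members were higher and 3 lower, or 9 higher and 2 lower by library totals alone.

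The element read by ATF4 with C/EBP partners was searched as TGATGNAA on both strands. It was found in 13 of 34 matched promoters of the list (38.2%) and in 2.82% of all 10910 promoters. Of these 13 members 8 were lower, beside 72.5% of the whole list, so members with the element were not lower more often. The others were Vldlr, which was higher, and Slc7a11, Nupr1, Slc1a4 and Fgf21, which were not called. Of the 308 genes with it, 15.9% were lower and 11% higher, and of the 295 outside the list 13.9% were lower and 11.2% higher. The windows of 5 members that hold the element and were lower are shown in the direction of the gene, with the element in capitals.
Trib3, chr2:152344019-152344066, minus strand: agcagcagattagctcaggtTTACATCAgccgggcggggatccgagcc
Asns, chr6:7693205-7693252, minus strand: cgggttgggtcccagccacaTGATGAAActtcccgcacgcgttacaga
Chac1, chr2:119351029-119351076, plus strand: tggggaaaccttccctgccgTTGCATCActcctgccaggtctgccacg
Pycr1, chr11:120643824-120643871, minus strand: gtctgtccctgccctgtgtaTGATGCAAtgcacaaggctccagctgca
Gars, chr6:55037951-55037998, plus strand: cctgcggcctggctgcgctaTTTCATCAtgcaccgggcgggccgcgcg
Chac1, which encodes a glutathione-degrading enzyme, and Pycr1, which makes proline, had log2 fold changes of -0.51 ± 0.09 and -0.70 ± 0.14.

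Among genes of glucose use, lower calls outnumbered higher ones. Of 28 glycolysis and glucose transport genes, 15 were lower and 2 higher, with a median log2 fold change of -0.17. Pfkl, the liver-type phosphofructokinase, had 143, 142 and 146 CPM with siChst7, against 234, 242 and 241 CPM with siControl. The groups were apart, with a log2 fold change of -0.73 ± 0.05 (edgeR adjusted p = 2.82e-10). Eno3 (an enolase), Pdk1 (which restrains pyruvate entry into mitochondria) and the lactate exporter Slc16a3 had -0.66 ± 0.04, -0.85 ± 0.09 and -0.77 ± 0.07, whereas Pkm was not called. Of 28 hypoxia-inducible genes, 12 were lower and 7 higher, with Bnip3 (-0.70 ± 0.09) and Ndrg1 (-0.63 ± 0.04) lower and Ddit4 (0.95 ± 0.07), a brake on the growth kinase mTOR, higher. Hif1a was not called (edgeR adjusted p = 0.927). Leaving out siChst7 replicate 3, the glycolysis list had 14 lower and 2 higher and the hypoxia list 8 lower and 7 higher. By library totals alone the glycolysis list had 12 lower and 4 higher.

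In the lipid synthesis lists the called members were higher, by small amounts, and most members were not called. Of 27 cholesterol synthesis and SREBP genes, 11 were higher and 0 lower, among them Hmgcs1 (log2 fold change 0.47 ± 0.06), Mvd (0.57 ± 0.08), Insig1 (0.60 ± 0.08) and the cholesterol exporter Abca1 (0.50 ± 0.07). Their summed levels were 1093.6 to 1139 CPM in siChst7 and 991.39 to 1012.7 CPM in siControl libraries. Of 25 fatty acid synthesis and storage genes, 10 were higher and 0 lower, including the desaturase Scd2 (0.44 ± 0.05) and the phosphatidate phosphatase Lpin1 (0.83 ± 0.09). Among 30 mitochondrial regulators and fatty acid oxidation genes, 9 were higher and 2 lower. Ppargc1a, the coactivator PGC-1alpha that drives mitochondrial biogenesis, had 12.3, 11.7 and 13.0 CPM with siChst7, against 3.99, 4.72 and 4.50 CPM with siControl. No siChst7 library came near the siControl range, and the log2 fold change was 1.49 ± 0.12 (edgeR adjusted p = 5.06e-09). Cpt1a, the gate enzyme of fatty acid oxidation, was at 105 ± 3.58 CPM with siChst7 and 84.1 ± 1.63 CPM with siControl. Respiratory chain subunits showed 1 higher and 1 lower of 40, a smaller share than over all genes. When siChst7 replicate 3 was left out, the cholesterol list had 13 higher and 0 lower, the fatty acid list 9 higher and 0 lower, and the mitochondrial list 9 higher and 1 lower. Adipocyte markers summed to 39.446 to 42.486 CPM with siChst7 and 29.443 to 32.097 CPM with siControl, with Fabp4 and Cebpa higher of 3 tested. The other, Pparg, was not called and went the other way, at 47 to 52 counts with siChst7 and 65 to 73 counts with siControl. Adiponectin (Adipoq) was at 0 to 2 counts in either group, and the part of such cells was not tested.

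Receptors and factors of growth were more often higher than lower, with 15 of 44 higher and 8 lower. Pdgfra, a receptor that marks undifferentiated fibroblasts, had 126, 120.4 and 129 CPM with siChst7, against 67.7, 68.2 and 64.6 CPM with siControl. Pdgfrb, its relative, had 194, 192 and 210.4 CPM with siChst7, against 113, 116 and 112 CPM with siControl. For both receptors the groups were far apart, with log2 fold changes of 0.91 ± 0.05 (edgeR adjusted p = 1.48e-11) and 0.81 ± 0.04 (adjusted p = 1.16e-12). The insulin-like growth factor binding proteins Igfbp3 and Igfbp4, and Angpt1, a ligand that acts on endothelial cells, were higher, at 0.85 ± 0.08, 0.78 ± 0.06 and 0.86 ± 0.10. Endothelin moved in opposite ways at ligand and receptor: Edn1 was at 19.6 ± 1.56 CPM with siChst7 and 35.8 ± 0.852 CPM with siControl, and Ednra at 7.05 ± 0.436 CPM with siChst7 and 3.41 ± 0.261 CPM with siControl. The lower members were Edn1, Egfr, Bdnf, Fgfr2, Flt1, Hbegf, Ereg and Igf1r, with Egfr at -0.45 ± 0.06 and Bdnf at -0.61 ± 0.05. Fibroblast identity genes were evenly split, with 7 of 33 higher and 7 lower. In the absence of siChst7 replicate 3, the growth factor list had 15 higher and 7 lower and the identity list 7 higher and 6 lower. The growth factor list had 5 lower without siChst7 replicate 1 or siControl replicate 2, and the identity list 4 lower without siChst7 replicate 2 or siControl replicate 1 or 2. Scaled to library totals alone, the identity list was no longer even, with 11 higher and 4 lower.

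Wnt, Notch and BMP genes had 9 of 39 higher (23.1%) and 8 lower (20.5%), beside 13.9% higher and 13.5% lower over all genes tested. Jag1, a Notch ligand, had 16.1, 16.9 and 19.3 CPM with siChst7, against 36.4, 33.4 and 35.5 CPM with siControl, with no overlap and a log2 fold change of -1.01 ± 0.07 (edgeR adjusted p = 2.26e-10). The Notch target Hey2 was also lower, at 0.606 ± 0.136 CPM with siChst7 and 1.83 ± 0.291 CPM with siControl. Grem1, a secreted BMP antagonist, was at 1881 ± 45.0 CPM with siChst7 and 1251 ± 37.6 CPM with siControl. The list had 4 higher and 9 lower without siChst7 replicate 3, and 4 higher and 8 lower without siControl replicate 2 or 3, so that its balance turned.

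Of 36 immediate early genes, 16 were lower, 5 higher and 15 not called. Klf2 (-0.82 ± 0.06), Phlda1 (-0.72 ± 0.04), Dusp1 (-0.65 ± 0.07), Nr4a1 (-0.62 ± 0.07), Egr1 (-0.36 ± 0.05) and Myc (-0.27 ± 0.05) were lower, whereas the AP-1 genes Fos, Junb and Jund were not called. The count was 16 lower and 4 higher without siChst7 replicate 3. Called cell cycle genes moved by small amounts. Of 46 S phase genes, 11 were lower (23.9%) and 0 higher. Of 44 G2 and mitosis genes, 8 were lower (18.2%) and 3 higher (6.82%). Over all genes tested, 13.5% were lower and 13.9% higher, so the lower share of the G2 list was near that of all genes. Scaled to library totals alone the balance turned in both lists, to 3 lower and 4 higher in each. Without siChst7 replicate 3 the S phase list had 11 lower and 5 higher, and without siControl replicate 2 it had 6 lower. Mki67 and Top2a, markers of cycling cells, had log2 fold changes of 0.01 ± 0.04 and -0.01 ± 0.04 (edgeR adjusted p = 0.905 and 0.835). Cell cycle inhibitors, D cyclins and p53 targets had 11 higher (28.2%) and 6 lower (15.4%) of 39. The inhibitors Cdkn2c (0.32 ± 0.04), Cdkn2b (0.39 ± 0.06) and Cdkn1b (0.33 ± 0.05) were higher, and Cdkn1a was not called. Gadd45g was lower, at 43.5 ± 0.400 CPM with siChst7 and 89.1 ± 2.86 CPM with siControl. That list had 3 lower without siChst7 replicate 1 or siControl replicate 1. Cytosolic ribosomal protein genes had 3 of 74 lower (4.05%) and 0 higher, both below the shares over all genes, with 1 to 6 lower when single libraries were left out.

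In the chemokine and antioxidant lists, higher calls outnumbered lower ones. Of 38 chemokine and cytokine genes, 11 were higher and 4 lower, or 17 higher and 2 lower when scaled to library totals alone. Il1rl1, the receptor of interleukin 33, was at 701 ± 35.3 CPM with siChst7 and 462 ± 18.7 CPM with siControl, the interleukin 1 receptor Il1r1 had a log2 fold change of 0.58 ± 0.08, and the chemokine Ccl7 had 0.47 ± 0.11. Il1rn, the natural antagonist of that receptor, had 78.5, 69.9 and 75.8 CPM with siChst7, against 29.8, 29.1 and 29.2 CPM with siControl, a log2 fold change of 1.35 ± 0.09 (edgeR adjusted p = 9.47e-11) with groups far apart. Ptgs2, the inducible cyclooxygenase, was lower at 262 ± 4.30 CPM with siChst7 and 351 ± 6.99 CPM with siControl. Few interferon response genes were called, with 4 of 59 higher (6.78%) and 6 lower (10.2%), beside 13.9% and 13.5% over all genes tested. That balance turned to 7 higher and 3 lower when scaled to library totals alone. Isg15 had a log2 fold change of -0.49 ± 0.09 and Usp18 -0.37 ± 0.09. Of 30 NRF2 and antioxidant genes, 11 were higher and 1 lower, with Nqo1 at 0.57 ± 0.09, Gsta4 at 0.81 ± 0.12 and the single lower member Gclm at -0.54 ± 0.06; Nfe2l2, the gene of NRF2, and Hmox1 were not called. Omitting siChst7 replicate 3, the chemokine list had 9 higher and 4 lower, the interferon list 2 higher and 9 lower, and the antioxidant list 11 higher and 1 lower. Omitting any single library, the interferon list had 1 to 3 higher and 3 to 9 lower. Macrophage and leukocyte markers summed to 62.017 to 66.241 CPM with siChst7 and 49.013 to 54.231 CPM with siControl, with Cd14 higher of 6 tested and Adgre1 at 0 counts. Their part was not tested.

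Of the switchable factors only Tbx5 passed the test before induction, and that call depended on the processing. The counts do not separate the delivered copies of these factors from the cells' own. Mef2c was at 47.1 ± 2.51 CPM with siChst7 and 47.1 ± 1.99 CPM with siControl, and Gata4 at 73.3 ± 5.30 CPM with siChst7 and 80.3 ± 2.32 CPM with siControl (edgeR adjusted p = 0.993 and 0.074). Tbx5 had 119, 119 and 137 CPM with siChst7, against 138, 139.9 and 132 CPM with siControl, and its groups overlapped. Its edgeR adjusted p was 0.0495. The call was lost under every alternative run except leaving out siChst7 replicate 3 or siControl replicate 3. Without siChst7 replicate 3, Gata4 also passed as lower (log2 fold change -0.189, edgeR adjusted p = 0.0129). Of 20 cardiac transcription factors and heart genes, 7 were lower and 2 higher, with Nppb, a natriuretic peptide gene, at 1.14 ± 0.177 CPM with siChst7 and 2.87 ± 0.385 CPM with siControl. Of 34 sarcomere genes, 4 were lower (11.8%) and 2 higher (5.88%), beside 13.5% lower and 13.9% higher over all genes tested. Cardiac troponin T (Tnnt2) had 20.4, 21.5 and 20.5 CPM with siChst7, against 10.1, 9.94 and 8.92 CPM with siControl, a log2 fold change of 1.11 ± 0.08 with no overlap, whereas Acta1, the skeletal muscle actin, had -0.52 ± 0.10. Among 26 calcium handling and channel genes, 4 were lower (15.4%) and 2 higher (7.69%), which turned to 2 lower and 4 higher when scaled to library totals alone. Kcnj2, an inward rectifier potassium channel, had 56.7, 57.6 and 54.4 CPM with siChst7, against 19.4, 22.5 and 23.3 CPM with siControl, and a log2 fold change of 1.37 ± 0.09 (edgeR adjusted p = 6.02e-11). Of 25 HOX genes, 3 were higher (12%) and 2 lower (8%), or 5 higher and 1 lower by library totals alone. With siChst7 replicate 3 omitted, the cardiac, sarcomere and channel lists had 7, 3 and 4 members lower and 2 members higher in each. The cardiac list had 3 or 4 lower when siChst7 replicate 1 or 2 or siControl replicate 1 or 2 was left out, and the channel list 2 lower without siChst7 replicate 1. By library totals alone the cardiac list had 4 lower and 2 higher.

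Markers of several other cell types moved with the groups. Summed endothelial markers were 23.958 to 26.429 CPM with siChst7 and 16.16 to 18.902 CPM with siControl, with Vwf and Cdh5 higher of 5 tested and Tie1, Emcn and Cldn5 at 0 counts in all 6 libraries. On the lower side, mesothelial markers summed to 77.208 to 78.776 CPM with siChst7 and 93.171 to 98.789 CPM with siControl, with Msln and Krt19 lower of 5 tested, and neural and glial markers to 257.09 to 268.62 CPM with siChst7 and 348.28 to 357.06 CPM with siControl, with Nes, Tubb3 and Elavl4 lower and Sox2 higher of 6 tested. The calls of Cdh5, Krt19, Tubb3 and Elavl4 were lost when 1 library was left out. Epithelial and cardiomyocyte markers each stayed under 2 CPM in sum, and skeletal myogenic markers had 0 of 3 called. The part of such cells in the results was not tested. Counts mapped to the ribosomal RNA gene Rn45s took 0.159% to 0.228% with siChst7 and 0.131% to 0.168% with siControl, and their part was not tested either.

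Doxycycline was added after day 0, and the effect of siChst7 was compared between days by an interaction term. Between day 1 and day 0 the effect differed for 1615 genes (11.7% of 13802), with 6.2% of all genes above 0, and between day 3 and day 0 for 5356 genes (38.8%), with 20.7% above 0. Each day has its own siControl libraries, but both interactions share the 6 day 0 libraries. Of the 3785 genes called at day 0, 1201 had an interaction at day 1 and 2259 at day 3. Of contractile members, 15 of 24 had an interaction above 0 at day 1 and 19 at day 3, and of SRF and actin members 20 of 33 and 22. The YAP and TEAD list had 16 of 32 and 13, and the stress response list 24 of 40 and 14, in the same order.

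For named genes the 3 days are set side by side. Apart from Chst7, they were named by their day 0 values, which each interaction subtracts, so part of an opposite sign is built in. Acta2 had log2 fold changes of -1.47 at day 0, -0.41 at day 1 and 0.20 at day 3, and its interactions were 1.06 and 1.66 (edgeR adjusted p = 2.1e-08 and 1.2e-11). Tagln went to 0.05 at day 1 and 0.91 at day 3, with an interaction of 2.20 at day 3. Ctgf was at 0.00 and 0.29 on those days and Ankrd1 at 0.36 and 0.52. Atf4 was at -0.06 and 0.03, neither called. Wdr1 kept part of its drop, at -0.71 and -0.58. Among genes higher at day 0, Pdgfra was at -0.01 and -0.29 on days 1 and 3, Ppargc1a at 0.48 and -0.29, and Alcam, a cell adhesion gene at 52.3 ± 3.68 CPM with siChst7 and 21.1 ± 1.03 CPM with siControl on day 0, at 1.24 and 0.07. Chst7 itself was at -5.65 on day 1 and -3.54 on day 3. The interactions of these genes passed on both days, apart from Alcam (-0.07, edgeR adjusted p = 0.71) and Chst7 (-0.18, adjusted p = 0.81) at day 1.

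**Figure D5:**
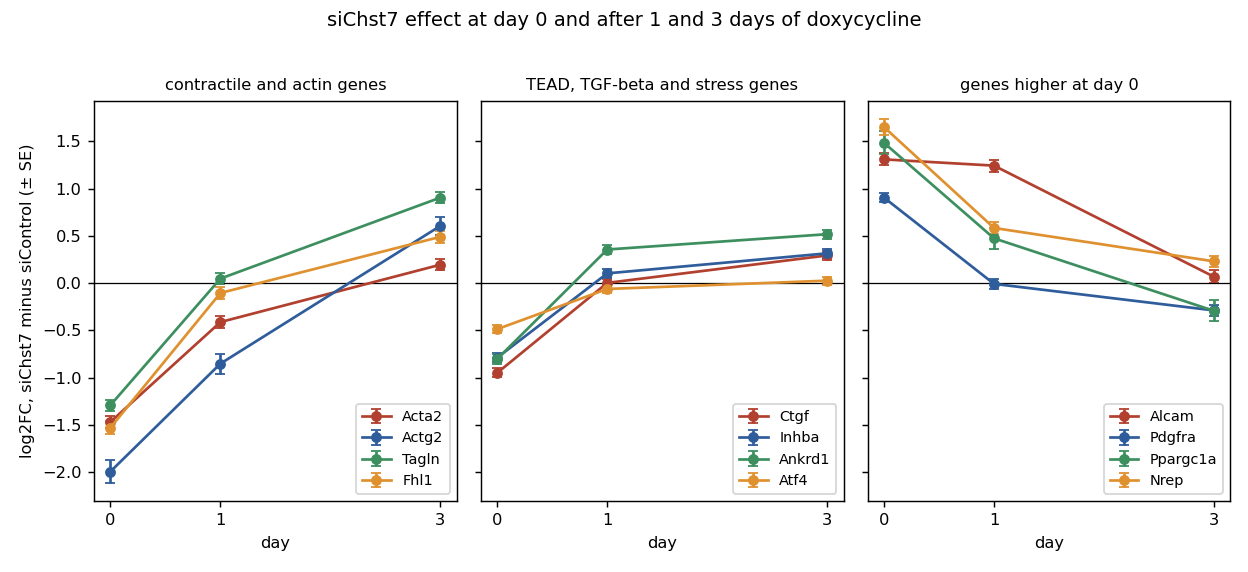
Log2 fold change of siChst7 over siControl (± SE) for 12 genes at day 0 and after 1 and 3 days of doxycycline, each day against its own siControl libraries. The contractile genes Acta2, Tagln and Actg2 and the SRF and actin list member Fhl1 are lowest at day 0 and above 0 at day 3, Ctgf, Inhba, Ankrd1 and Atf4 are below 0 at day 0 only apart from a value of -0.06 for Atf4 at day 1, and Alcam, Pdgfra, Ppargc1a and Nrep are highest at day 0.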

How the data were processed

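Total RNA was sequenced as poly-A libraries, and the authors deposited raw read counts per gene for 18 libraries with a gene length column. HISAT2, Subread, featureCounts, DESeq2 and the mm10 build are named in the submitters' processing notes, with no role or order; neither the strand setting nor how reads of near-identical copies were counted is stated there. The 3 siChst7 and 3 siControl libraries of day 0 were compared with edgeR 4.0.16 (R 4.3.3), in a quasi-likelihood model of all 18 libraries in 6 groups, after filterByExpr and TMM scaling, at a Benjamini-Hochberg adjusted p under 0.05. Common dispersion was 0.00331. SE is the absolute log2 fold change over the square root of F. CPM values were computed from the deposited counts on TMM-scaled library totals.

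Genes were named by a rule: Chst7 and the 3 factors, the 12 largest called changes and 6 smallest p-values in each direction (mean of at least 5 CPM, groups apart, predicted genes left out), up to 5 called and 3 uncalled members per list, and every tested sulfotransferase. Further genes were named after their values were seen, and a few that the rule names are not reported here. Members and the 36 lists and 10 marker lists were chosen with earlier results of these data known. In 25 rows the gene symbol had become a date. Gene coordinates were taken from RefSeq, in which 96.2% of symbols were found. Promoters were RefSeq GRCm38.p6, with a sequence for 10910 of the 13802 genes tested. Deviations of libraries with the same replicate number had correlations of -0.169, 0.1 and -0.229, and the libraries were not treated as pairs. With 3 libraries per group this cannot exclude that equal numbers share a culture or batch. DESeq2 1.42.0, other scalings, filters, a replicate block and leaving out each library were alternatives.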

Additional observations from a re-analysis of the deposited data

Results flagged for a closer look

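Genes were picked out here because the siChst7 effect at day 0 differed, by an interaction term in edgeR, from that after doxycycline. With 3 libraries per group, single outlying libraries were not looked for by Dixon's test. The interaction passed for 1615 genes at day 1 and 5356 at day 3, and both sets of interactions share the day 0 libraries. The genes looked at were those with the widest log2 fold changes at day 0 in each direction. That value is subtracted in each interaction, so part of an opposite sign is built in by the choice. Among them, Actg2 had interactions of 1.14 at day 1 and 2.6 at day 3, Sync 0.77 and 1.13, and Fhl1 1.42 and 2.02. Acta2 had 1.06 and 1.66, and Lims2 1.32 and 1.33. Each of these was lower at day 0 than later relative to siControl. Nrep had -1.07 and -1.42 and Ppargc1a -1.01 and -1.78, and Cyp1a1, an enzyme of xenobiotic metabolism, had -1.4 at day 3. These genes were higher at day 0 than later. Prl2c2, Chil1 and Cd300lb, looked at in the same way, passed at neither day, and Cyp1a1 did not pass at day 1. For Chst7 the interaction was 1.93 at day 3, when its log2 fold change was -3.54, against -5.47 at day 0.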

How the results depend on the processing

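Called genes numbered 2952 to 3375 when 1 library at a time was left out and 3929 with the DESeq2 test (3731 of them shared with the 3785). Scaled to library totals alone, 1217 genes were lower. A stricter filter on low counts left 74 genes that were at least 2-fold higher. With only the libraries compared in the fit, 2448 genes had a day 1 interaction, and leaving out libraries gave 1219 to 1465. Small counts within lists moved by 1: contractile genes had 1 higher by library totals and the DESeq2 test, and 0 to 1 higher when single libraries were left out (1 without siChst7 replicate 3 or siControl replicate 1); SRF and actin genes had 2 higher by library totals; collagens had 2 lower by the DESeq2 test and without siChst7 replicate 3; and the stress response list had 1 higher without siChst7 replicate 3 or siControl replicate 2. The cause was not tested. No called gene that is named changed the sign of its log2 fold change under the alternatives run, whereas the balance of several lists turned, as given with them. With a replicate block, 3656 genes were called (3601 shared), and of named genes Chst14, Gal3st2, Nppa, Rpl39, Rpl4 and Tbx5 lost their call. The labels do not state whether the replicate numbers pair the libraries. Genes with few counts, such as Gal3st2 with 0 to 10 counts a library, carry a wide counting error relative to their level.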

Other observations

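Several other genes had large changes at day 0. Nrep, a neuronal regeneration protein also made by fibroblasts, had 17.6, 17.3 and 17.7 CPM with siChst7, against 6.11, 5.38 and 5.24 CPM with siControl, with groups apart and a log2 fold change of 1.65 ± 0.08 (edgeR adjusted p = 1.17e-12). The secreted chitinase-like protein gene Chil1 was at 29.2 ± 1.19 CPM with siChst7 and 10.6 ± 0.667 CPM with siControl, and the glutamate transporter gene Slc1a3 at 23.2 ± 1.09 CPM with siChst7 and 8.63 ± 0.158 CPM with siControl (SD, n = 3 each). Trp53inp1, a p53-induced gene, and Klhl24 had log2 fold changes of 1.21 ± 0.08 and 1.16 ± 0.06. On the lower side, Prpf19, a splicing and ubiquitin ligase factor, was at 86.0 ± 2.19 CPM with siChst7 and 181 ± 5.22 CPM with siControl, and Pip4k2c, a phosphoinositide kinase, at 88.7 ± 1.85 CPM with siChst7 and 198 ± 3.96 CPM with siControl. At day 1 the log2 fold changes were -1.15 for Prpf19 and -1.26 for Pip4k2c, with interactions of -0.07 and -0.10 that did not pass (edgeR adjusted p = 0.49 and 0.37). At day 3 both interactions were above 0, at 0.42 and 0.38.

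Tgfbi, a matrix protein gene named for TGF-beta, was higher at a low level, with 1.33, 1.67 and 2.02 CPM with siChst7, against 0.415, 0.310 and 0.312 CPM with siControl, and the groups did not overlap.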
